A study of Ginkgo biloba with 7 samples.

Results

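miR394 is a microRNA family that was read here in ovules of Ginkgo biloba together with the genes listed as its targets. Its members were taken by name: every name of this family in the small RNA table, and every gene paired with such a name in the target table. This gave 1 name, ath-miR394a, of 279 miRNA names, and 13 target genes of the 902 listed targets and the 43456 genes of the gene table. The family itself was selected on the median difference of its targets between the stages, which was high in these same libraries, so the gene values below are a description and carry no test.

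The ovules came from several trees of the Fozhi cultivar growing outdoors. PN denotes pollinated ovules, collected 1 day after pollination, and PD denotes mature ovules that were secreting the pollination drop, the droplet that catches airborne pollen in Ginkgo. All ovules were of this cultivar, and no unpollinated ovules of the later time were among the samples, so pollination and the passage of time cannot be told apart. Of 7 samples, 4 were RNA-seq libraries (2 labelled PN and 2 labelled PD), 2 were small RNA libraries (1 for PN and 1 for PD), and 1 was a mix of ovules of both stages, which carries the target table and was taken here to be the degradome (a library of cleaved RNA ends). In the gene table PN1 and PD1 each name 1 column, whereas 2 columns carry the same PD2 header and could not be matched to a sample by name. Gene values are therefore from PN1 and PD1 alone, and miRNA values from 1 library per stage, with no replicate error for any value.

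Plant miRNAs pair almost completely with their target RNAs and guide an Argonaute protein to cut them, and a degradome library is meant to catch the cut ends. miR394 is shared by many seed plants and is best known from the shoot meristem of Arabidopsis. There it is made in the surface cell layer, moves inward, and lowers LEAF CURLING RESPONSIVENESS (LCR), which keeps the stem cells beneath responsive to the transcription factor WUSCHEL. LCR is an F-box protein, the part of an SCF ubiquitin ligase that binds the proteins to be degraded. The files give Ginkgo gene IDs without names, so which of the 13 genes, if any, encodes an F-box protein is not known here, and other genes of the meristem pathway could not be looked up.

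The small RNA libraries held 1129198 reads counted to miRNA names in PN and 774387 in PD. Of the listed genes, 27545 were above 0 FPKM (a fragment number divided by gene length and by library size) in PN1 and 27099 in PD1. Comparing the steps of low FPKM values placed the depth of PN1 at 1.18 times that of PD1, but FPKM does not give the absolute depth. Gene differences are given as log2(FPKM + 1) in PN1 minus PD1, a scale that understates the change of weakly expressed genes. They were compared for the 21308 genes with a mean of at least 1 FPKM. Their median was 0.11, so a typical gene was slightly higher in PN1 on this scale.

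ath-miR394a was present at nearly the same level in both stages. It had 2118 reads in PN and 1523 reads in PD. As TPM, here reads scaled to the sum of all counted reads, this was 1876 in PN and 1967 in PD. These are shares of 0.188% of the counted reads in PN (exact Clopper-Pearson 95% interval 0.180 to 0.196) and 0.197% in PD (0.187 to 0.207), so the intervals of the shares overlapped. The ratio of the share in PN to that in PD was 0.954, with an exact conditional binomial 95% interval of 0.893 to 1.02. These intervals cover counting error only and not the variation between ovules or library preparations. The direction of this small difference was not stable: with libraries scaled by the median of ratios over names the ratio was 0.931 (0.871 to 0.995), and as a share of the reads outside the dominant family miR166 it was 1.02 (0.952 to 1.09).

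By abundance ath-miR394a stood in the upper part of the table, at rank 39 of 279 names in PN and rank 37 in PD. Taken as a family it ranked 17 of 80 in PN and 18 in PD. No other name in the table had the same counts in both libraries, and as the family has 1 name its sum repeats no reads under several names of the family. How reads were assigned to names is not given in the sources used here.

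A 2-fold higher share in PN with an interval that excluded equal shares was seen for 5 (10.9%) of the 46 families with a total of 50 or more reads, and a 2-fold lower one for 3 (6.52%). miR394 was in neither set. Over the 127 single names with as many reads, 8.66% passed the limit on the higher side and 7.09% on the lower side, and ath-miR394a did not pass on either side. The interval of 15 of the 46 families, miR394 included, contained a ratio of 1. The families nearest to it in ratio were miR165, a close relative of miR166 that acts on class III HD-ZIP genes, with a ratio of 0.956 (0.878 to 1.04), and miR169, known for NF-YA transcription factors, with a ratio of 0.957 (0.778 to 1.18). miR319, known for TCP genes, came next with a ratio of 0.93 (0.904 to 0.956). With 1 library per stage this likeness rests on a single ratio for each family. The miR165 sum of 1294 reads in PN and 928 in PD covers 2 names. Of these, ath-miR165a-3p had 647 reads in PN and 464 in PD, with an interval of 0.847 to 1.08. Sums over several names may thus count the same reads more than once. The intervals of such families would then be too narrow, and the counts of families given above could differ.

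The families nearest to miR394 in mean read share were novel_7, a miRNA that the authors predicted, and miR160 and miR171. novel_7 had 2281 reads in PN and 1540 reads in PD, a ratio of 1.02 (0.952 to 1.08). miR160, which acts on auxin response factors, had 2954 reads in PN and 1781 reads in PD, a ratio of 1.14 (1.07 to 1.21). miR171, which acts on GRAS genes, had 1786 reads in PN and 1098 reads in PD, a ratio of 1.12 (1.03 to 1.20). The interval of miR394 lay wholly below those of miR160 and miR171. However, miR160 sums 8 names and miR171 sums 20, and the same reads may be counted under several names. Their intervals would then be too narrow, so a difference from miR394 beyond counting error is not shown.

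**Figure D1:**
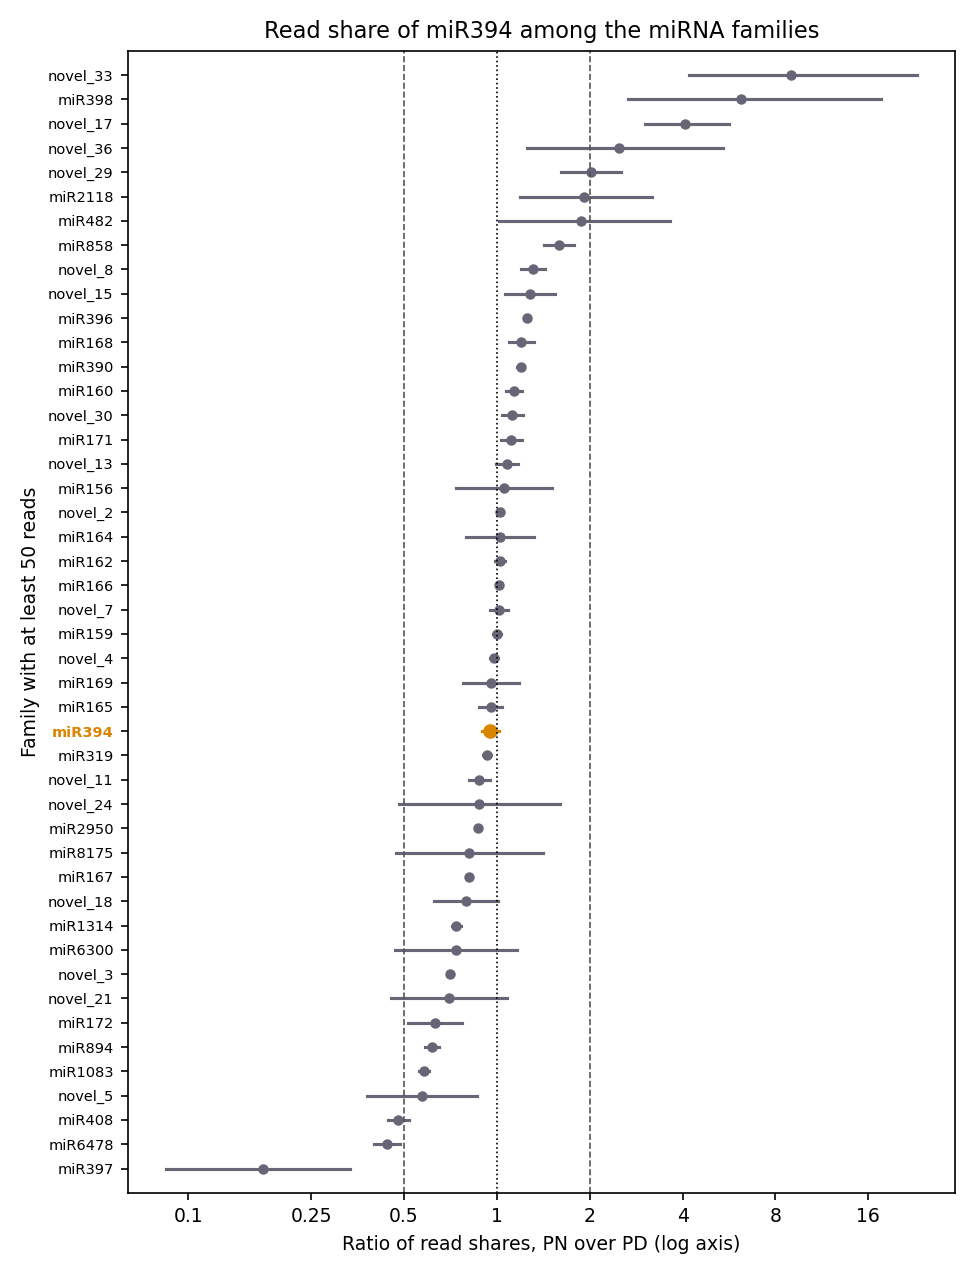
Ratio of read shares in PN over PD for the 46 families with at least 50 reads, on a log axis. Points are ratios and lines are exact 95% intervals of counting error, with dashed lines at 2-fold in each direction and a dotted line at equal shares. The intervals take each read as counted once, which may not hold for families with several names. miR394 sits close to equal shares at 0.954, in the middle of the families.

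The target table pairs ath-miR394a with 13 genes. The median number of targets was 3 over the 235 names and 8 over the 76 families with any target, so the list of miR394 was longer than most, at rank 13 among names and rank 23 among families. The table holds no cleavage position, category or read number, so the pairs carry no measure of support and none is ranked above another. Of the 13 genes, 8 were listed for no other family, and these are Gb_01508, Gb_01767, Gb_01973, Gb_15004, Gb_19641, Gb_35516, Gb_37345 and Gb_40011. The other 5 genes (38.5%) were also listed for at least 1 further family. Of all 902 target genes, 95 (10.5%) were listed for more than 1 family. That share counts each gene once, whereas a gene of several families enters several lists. It is thus not a matching base rate for the list of a single family, and no excess for miR394 is drawn from it.

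The listed targets were mostly well expressed. In PN1 their FPKM ran from 0.552 to 938 with a median of 68.5, and in PD1 from 0.150 to 380 with a median of 52.2. By comparison the median of all genes above 0 was 6.96 FPKM in PN1 and 6.86 FPKM in PD1, and 11 of the 13 targets reached it in PN1 and 10 in PD1. More than 100 FPKM was seen for 5 targets in PN1 and 4 in PD1, a level passed by 4.18% of all genes in PN1 and 3.83% in PD1. The targets of other families had a median of 33.4 FPKM in PN1 and 31.2 FPKM in PD1. A mean of at least 1 FPKM was reached by 12 of the 13 targets of miR394, by 88.3% of the targets of other families and by 49.0% of all genes.

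Summed over the 13 genes, the level was 2184 FPKM in PN1 and 1108 FPKM in PD1, a ratio of 1.97. The sum held 0.208% of all FPKM in PN1 and 0.101% in PD1. A single gene, Gb_35516, contributed 42.9% of this sum in PN1 and 34.3% in PD1, and accounted for 51.9% of the gain, while Gb_04376 accounted for 25.1%. Without Gb_35516 the sum was 1246 FPKM in PN1 and 728 FPKM in PD1.

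**Figure D2:**
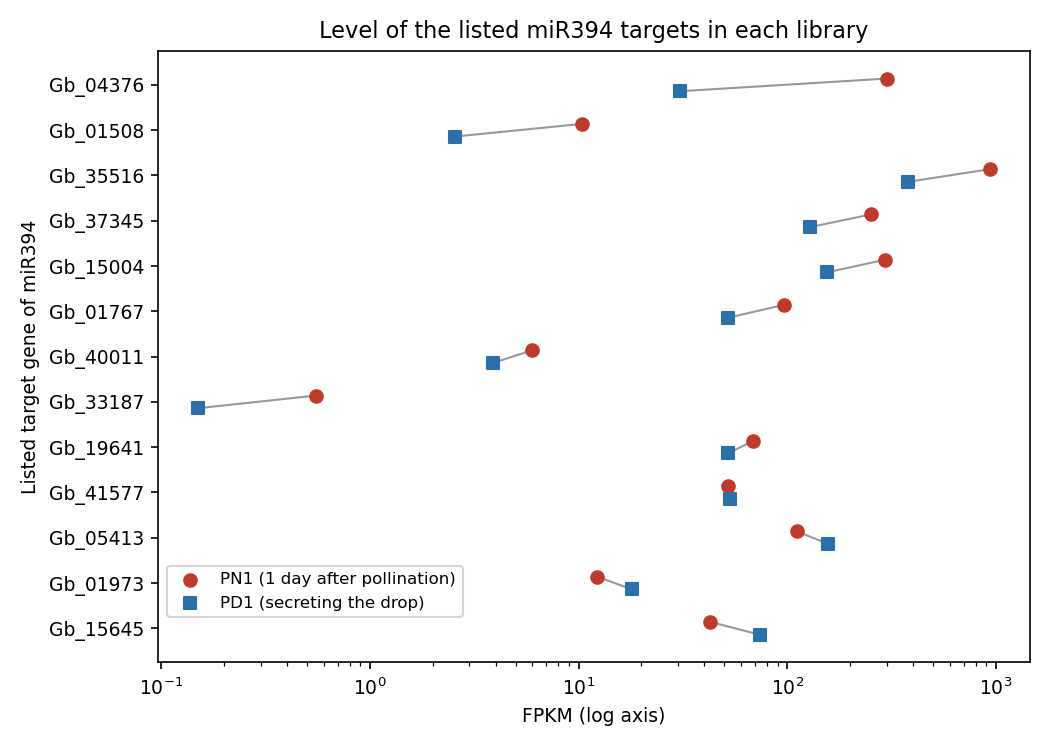
FPKM of each of the 13 listed target genes of miR394 on a log axis, with PN1 as red circles and PD1 as blue squares, 1 library each and no error bars. Genes are ordered by their log2(FPKM + 1) difference. Gb_04376 has the widest gap between the libraries, with 300.4 FPKM in PN1 and 30.6 FPKM in PD1, and the lowest 4 genes in the plot have less in PN1.

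A 2-fold higher value in PN1 on the FPKM + 1 scale was reached by 3 of the 12 compared targets, and a 2-fold lower one by 0. Over all compared genes the shares were 9.27% higher and 6.86% lower. The list was chosen with this outcome known, so the count of 3 of 12 is no evidence of its own, and no test could be run with 1 library per stage. As the tissue is whole ovules, a change in the number of cells that express a gene and a change in RNA per cell cannot be told apart.

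Gb_04376 had the largest difference of the list. It stood at 300.4 FPKM in PN1, against 30.6 FPKM in PD1, a log2 difference of 3.26 or a 9.55-fold higher value. Only 0.225% of the compared genes had a larger difference. Its place among all genes, ranked from the highest FPKM, was 537 in PN1 and 5630 in PD1. Among the 13 targets it was at place 2 by level in PN1, just above Gb_15004, and at place 9 in PD1.

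Gb_35516 was the most abundant target in both libraries. It had 938 FPKM in PN1, against 380 FPKM in PD1, a log2 difference of 1.30 or a 2.47-fold higher value, and ranked 122 of all genes in PN1 and 345 in PD1. A larger difference was seen for 4.82% of compared genes. Gb_01508 was expressed far lower, at 10.4 FPKM in PN1 against 2.56 FPKM in PD1. Its log2 difference was 1.68, a 3.21-fold higher value on the FPKM + 1 scale and 4.08-fold without the added 1, and 2.37% of compared genes had a larger one. Of the 3 genes past the limit, Gb_35516 and Gb_04376 were the most abundant targets in PN1, and Gb_01508 was at place 11 of 13.

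Another 3 targets lay just inside the 2-fold limit on the higher side. Gb_37345 had 251.5 FPKM in PN1 and 129 FPKM in PD1, a log2 difference of 0.96. Gb_15004 had 294 FPKM in PN1 and 155.5 FPKM in PD1, a log2 difference of 0.92. For Gb_01767 the values were 96.0 FPKM in PN1 and 52.2 FPKM in PD1, a log2 difference of 0.87. These 3 genes differed by 1.94-fold, 1.89-fold and 1.82-fold and were all listed for miR394 alone. Whether a gene counted as 2-fold higher was thus a close matter for Gb_37345, which passed the limit at 1.02 when each library was rescaled to the same sum of FPKM.

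At a limit of 1.5-fold, these 3 genes joined the higher set, which made 6 of 12 higher and 1 of 12 lower. The same limit was passed by 22.7% of all compared genes on the higher side and by 15.7% on the lower side.

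Smaller differences were seen for 2 genes on the higher side. Gb_40011 had 6.01 FPKM in PN1 and 3.88 FPKM in PD1, a log2 difference of 0.52. Gb_19641 had 68.5 FPKM in PN1 and 52.0 FPKM in PD1, a log2 difference of 0.39. A larger difference was seen for 25.8% of compared genes in the case of Gb_40011 and for 32.9% in that of Gb_19641, so both lay within the bulk of the distribution. Gb_41577 was almost level, with 52.1 FPKM in PN1 and 53.4 FPKM in PD1. Its log2 difference of -0.04 took the opposite sign, 0.02, when the libraries were rescaled to the same sum.

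On the lower side 3 genes had less in PN1 without reaching 2-fold. Gb_15645 had 42.8 FPKM in PN1 and 73.6 FPKM in PD1, a log2 difference of -0.77 or a 1.70-fold lower value. Gb_01973 had 12.3 FPKM in PN1 and 18.0 FPKM in PD1, a log2 difference of -0.52. For Gb_05413 the values were 111 FPKM in PN1 and 157 FPKM in PD1, a log2 difference of -0.49. Of all compared genes, 89.0% had a higher difference than Gb_15645, 82.1% a higher one than Gb_01973 and 81.4% a higher one than Gb_05413, so these 3 lay in the lower part of the distribution.

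The remaining target, Gb_33187, was the only one of the 13 below the mean of 1 FPKM. It had 0.552 FPKM in PN1 and 0.150 FPKM in PD1, and it was left out of the counts over the 12 compared targets. Its FPKM in PN1 was 3.67 times that in PD1, but at this level the difference on the FPKM + 1 scale was 0.43 and with an added value of 0.1 it was 1.38. An added value cannot change the direction, but it set the size of the difference. After allowing for relative depth, the ratio of fragments in PN1 to PD1 was 4.33. The number of fragments behind it is not known and may be small, so its direction is uncertain as well.

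**Figure D3:**
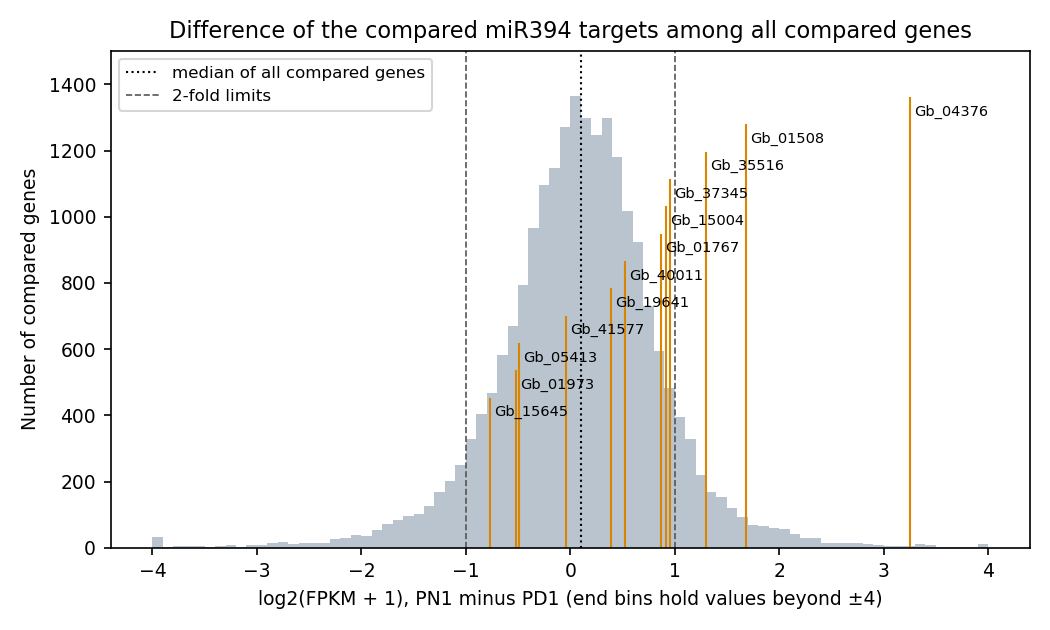
Log2(FPKM + 1) in PN1 minus PD1 for the 21308 compared genes (grey histogram, number of genes per bin of the difference) and for the 12 compared miR394 targets (orange lines, whose heights only separate the labels). The dotted line is the median of all compared genes at 0.11 and dashed lines mark 2-fold. The targets run from -0.77 to 3.26, with 3 beyond the right limit and 0 beyond the left.

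Across the 12 compared targets the median difference was 0.69, against 0.11 over all compared genes and 0.07 over the 785 compared targets of other families. The middle 50% of the 12 values lay between -0.15 and 1.05, so the list was spread wide and did not move as a block. In all, 8 of the 12 (66.7%) had a positive difference and 4 a negative one, against 12116 (56.9%) of all 21308 compared genes with a positive difference. The same 8 lay above the median of all compared genes.

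The genes listed for miR394 alone and those shared with other families had different values. The 8 genes listed for no other family had a median difference of 0.89, with 7 above 0 and only Gb_01973 below, where 56.9% of all compared genes were above 0. Of the 5 shared genes, 4 were compared, and their median was -0.27. The 2-fold limit was passed on the higher side by 2 of the 8 genes and by 1 of the 4, the same share of each. In this set Gb_04376 was far above 0 and Gb_41577, Gb_05413 and Gb_15645 were below. This split was seen after the values were known and was not tested.

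The shared genes differed in how much of the listed miRNA signal came from miR394. For Gb_04376 the other names were gra-miR482, of a family known for disease resistance genes, and osa-miR5077. gra-miR482 had 10 reads in PN and 5 reads in PD, and osa-miR5077 had 19 reads in PN and 9 reads in PD. ath-miR394a therefore made up 98.6% of the reads of all names listed for this gene in PN and 99.1% in PD. The same held for Gb_05413, whose other name atr-miR396d had 2 reads in PN and 0 in PD, and for Gb_41577, whose other name aly-miR845b-5p had 12 reads in PN and 10 reads in PD.

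Gb_15645 was the shared gene with a lower level in PN1 and an abundant further miRNA. Besides ath-miR394a it was listed for bna-miR167d, of the family that acts on auxin response factors, which had 3233 reads in PN and 2764 reads in PD, a ratio of 0.802 (0.762 to 0.844). Its remaining names were ath-miR390b-3p, lus-miR172j and ppt-miR1030h, of which ath-miR390b-3p was the largest in PN with 18 reads, against 1 in PD. The share of ath-miR394a among the reads of all its names was 39.4% in PN and 35.5% in PD.

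Gb_33187 was listed for 9 families, more than any other of the 902 targets. Its 10 further names held 15069 reads in PN and 11375 reads in PD, and ath-miR394a added 12.3% of the total in PN and 11.8% in PD. The most abundant of them was novel_4, with 10675 reads in PN and 7455 reads in PD, followed by osa-miR167d-5p with 3316 reads in PN and 2920 reads in PD. Others were ath-miR165a-3p, gma-miR2118a-3p, and ppt-miR408b and osa-miR408-3p, both of the family known for blue copper proteins. Gb_33187 also had the lowest FPKM among the genes of miR394. This is a single gene, and a relation between the number of listed families and the level was not tested.

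Set beside other families, the list of miR394 had the second highest median difference of the 43 lists with at least 5 compared genes. The highest was that of miR828, with a median of 1.31 over 6 genes, and the next below was that of miR1314, with 0.48 over 8 genes. miR169 is a useful neighbour, as its read ratio of 0.957 was close to that of miR394 and it was likewise listed with 13 targets. Its 11 compared targets had a median of 0.03, with 0 past the 2-fold limit on either side. miR165 had a ratio of 0.956, and its 8 compared targets had a median of 0.19 with 0 past either limit. Over all compared genes 9.27% passed the limit on the higher side and 6.86% on the lower side, so a count of 0 in lists this short sets no contrast. As miR394 was selected on the median of its targets, its place above these lists follows from the selection and is given as a description.

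**Figure D4:**
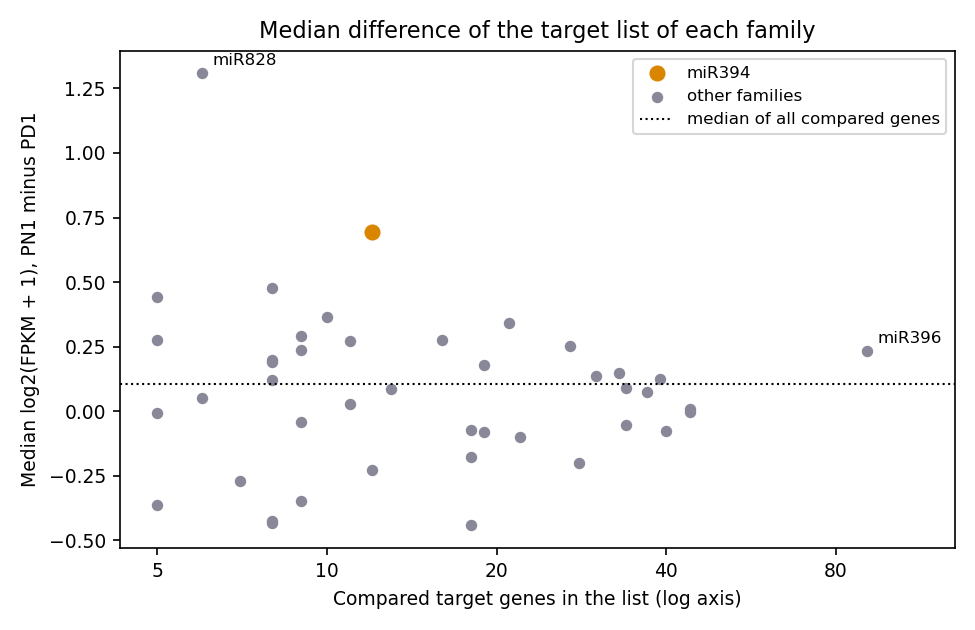
Median log2(FPKM + 1) difference in PN1 minus PD1 of each family's target list against the number of compared genes in it (log axis), for the 43 families with at least 5 compared targets. miR394 is the orange point at 12 genes and 0.69, below miR828 and above the other lists, and the dotted line is the median of all compared genes at 0.11.

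The miRNA and its targets can be set side by side only as single values from separate libraries. ath-miR394a had a ratio of 0.954 in PN over PD, while its 12 compared targets had differences between -0.77 and 3.26 on the log2 scale. The interval of the miRNA ratio, 0.893 to 1.02, does not reach a 2-fold change in either direction, and 3 targets were at least 2-fold higher. No relation between the miRNA and its targets could be tested with 2 libraries.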

How the data were processed

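The members and lists were chosen with earlier results of these data known. The deposited gene table gives FPKM per gene and library, which the authors computed, per the file headers. Per the submitters' processing notes, the tools included Bowtie, TopHat, TopHat2 (version 2.0.12) and Cufflinks (version 2.1.1). For build and annotation, nothing is given in the sources used here. Only columns whose header names 1 sample were used, which left out 2 value columns. Differences used a pseudocount of 1, a mean FPKM of at least 1 and a limit of 2-fold, with no test. The rule for named genes was all members, plus the 3 families nearest in ratio and the 3 nearest in share.

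The small RNA table holds read counts deposited without normalization and TPM from the authors, per the file headers. The deposited TPM equals reads scaled to the sum of counted reads to within 4.95e-05. A count of 0 allows up to 2.66 TPM in PN and 3.87 TPM in PD (3 reads). Family sums take all names with 1 number, so reads counted under several names would be summed more than once. The target table lists pairs of names and gene IDs, and 8 repeated rows were dropped, which left 1084 pairs.

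Python 3.11.15, pandas 2.3.3, numpy 2.4.6, scipy 1.17.1 and matplotlib 3.10.9 were used. The scripts were tested on simulated data. The alternatives were other pseudocounts, scalings, filters, limits and ways of counting reads.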

Additional observations from a re-analysis of the deposited data

How the results depend on the processing

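No paired analysis was possible because the column headers name a single usable RNA-seq library for each stage, and for the same reason no replicate could be left out. Settings varied were pseudocounts of 0.1 and 0.5, median-of-ratios and quantile scaling, and rescaling to the same sum. Others were no filter, a mean of at least 5 FPKM and genes listed for no other family. Across them, targets at least 2-fold higher in PN1 numbered between 2 (of 8, listed for no other family) and 4 (of 12, same sum). The number at least 2-fold lower was 0. Over all genes, 4.76% (no filter) to 12.9% (pseudocount of 0.1) were higher and 3.57% to 9.01% lower. The lower share was the larger with median-of-ratios scaling (7.47% higher, 8.44% lower) and quantile scaling (7.65% higher, 8.22% lower). The median difference lay between 0.52 (no filter, 13 genes) and 0.89 (genes listed for no other family). With median-of-ratios scaling the median of all compared genes was 0.00429, against 0.11 as reported, and that of the targets was 0.59. With a limit of 1.5-fold 6 targets were higher and 1 was lower, by construction of the wider limit. Of 65 values of single genes under other pseudocounts and scalings, 63 stayed on the same side of the 2-fold limit. The exceptions were Gb_33187 with a pseudocount of 0.1 (1.38) and Gb_37345 with rescaling to the same sum (1.02). The sign changed once, for Gb_41577. The ratio of miR394 was 0.931 with median-of-ratios scaling, where its interval excluded 1, and 1.02 outside miR166; the cause was not tested. Counting identical names once or the most abundant name alone changes nothing, as miR394 has 1 name. FPKM gives only relative depth, so the counting error of single genes is not known.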
